A study of Drosophila melanogaster with 6 samples.

Results

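Oxidative phosphorylation, the mitochondrial route by which cells turn the energy of nutrients into ATP, was followed through 69 nuclear genes of the 10844 genes that had a probe set of their own on the array. They were the genes whose symbol begins with ND-, Sdh, UQCR, Cyt-c, ATPsyn, or COX and a digit, with each gene read from its brightest probe set over the 6 arrays. Of these, 50 code for general subunits of the 5 complexes, 18 for paralogs of such subunits, and 1, Sdhaf3, for an assembly factor of succinate dehydrogenase. By complex there were 31 genes of complex I, 6 of complex II, 6 of complex III, 11 of complex IV and 14 of complex V. A further 26 genes with such symbols, among them SdhA, UQCR-C1, UQCR-C2, ND-49, both cytochrome c genes Cyt-c-p and Cyt-c-d, and the mitochondrially encoded COX1, COX2 and COX3, had no probe set to themselves and were not analysed here.

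Complexes I and II pass electrons from NADH and succinate to ubiquinone. Complex III hands them to cytochrome c, complex IV to oxygen, and the proton gradient built on the way turns complex V, the ATP synthase. In Drosophila many nuclear subunits have a paralog, usually marked by an L at the end of the symbol, and many such paralogs are transcribed mainly in the testis. In the ovary, ATP synthase is known to be needed for germ cells to differentiate and for their mitochondria to form mature cristae.

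RNA from 2 kinds of Drosophila melanogaster cells was measured on 1-colour oligonucleotide arrays, with 3 arrays of each. The GSC samples, numbered 1 to 3, are labelled as purified germline stem cells of ovaries mutant for bam, a gene that drives the differentiation of stem cell daughters, so that undifferentiated germ cells accumulate in its absence. The Kc samples, also numbered 1 to 3, are Kc cells, an established line that came from embryos and grows in culture. The labels name no bam allele, strain, age or culture condition, nor do they say whether replicate arrays came from separate dissections or cultures. The p-values therefore reflect the spread among these arrays alone, and that spread may be technical. In both groups RNA came from many cells at once, so fewer cells that carry a transcript and less of it per cell cannot be told apart. Ovaries that overexpress Dpp also belong to the design, and their samples were not analysed here.

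Summed signals of 9 germ cell markers, bam among them, were 32256.5 to 34805.1 on GSC arrays, against 1678.9 to 1833.6 on Kc arrays. By the limma rule given below 7 of the 9 were higher in GSC, bam was lower and bgcn was neither. Summed signals of 6 hemocyte markers, read for the Kc cells, were 217.7 to 355.6 on GSC arrays, against 24068.9 to 25525.7 on Kc arrays. Of these 5 were lower in GSC, while NimC1 was dim in both groups, at a mean of 10.1 in GSC and 26.2 in Kc. Of all genes 12.6% were called higher and 8.05% lower. The median signal of an array lay between 148.5 and 176.5. The bam probe set read 87.0, 33.8 and 29.2 on the GSC arrays, against 885, 588 and 854 on the Kc arrays. Of 18 measured markers of ovarian somatic cells, muscle and fat body, none was called by the limma test used below, beside 20.7% of all genes. At an unadjusted p under 0.05, for which no share over all genes is given, there was 1 higher and 1 lower. Most of these markers were dim. A mean signal of at least 162, the median of all values, was reached by 0 of 6 ovarian somatic, 1 of 8 muscle and 1 of 4 fat body markers. Genes this dim could hardly be called, so the count does not show that such cells were absent. The signal of the array's 3′ actin probe set was 4.22 to 4.77 times that of the 5′ one on GSC arrays, against 1.76 to 1.90 times on Kc arrays, and the GAPDH and eIF-4a controls differed in the same direction. This difference in 3′ to 5′ signal runs along with the groups, and its part in the results was not tested.

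The transcripts of oxidative phosphorylation were for the most part close to level between germline stem cells and Kc cells, with a small number of wide departures. A gene was called higher or lower where limma gave an adjusted p under 0.05 and the fold was at least 2, on the scale of log2(signal + 38). Group means are given ± SD over 3 arrays. By this rule 4 of the 69 genes were higher in GSC, which were ATPsynbeta, ATPsynepsilonL, Cyt-c1L and ND-PDSW, against a background of 12.6% of all genes. The 2 genes that were lower were Cyt-c1 and ND-39, against a background of 8.05%. The other 63 passed in neither direction. That made 8.70% of the 69 genes called, against 20.7% of all 10844 genes.

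The same picture held on the scale of size. The median log2 fold, GSC over Kc, was 0.03 over the 69 genes and 0.04 over all genes. Of the 69 genes, 48 lay within 0.5 of no change on the log2 scale, which is 69.6%, against 54.7% of all genes. Among the 50 general subunits, 41 had a 95% interval of the log2 fold that stayed inside 1 in both directions. Differences without regard to fold were counted as well. At an adjusted p under 0.05 and any fold in limma, 14 of the 69 genes were higher, beside 22.0% of all genes. Another 14 were lower, beside 14.4% of all genes. Both counts include the called genes. Among the 50 general subunits alone 11 were higher and 13 were lower. Since most general subunits are bright on these arrays, the comparison was repeated among genes with a mean signal of at least 1000, a restriction added after the data were seen. There 4 of 46 general subunits were called, or 8.70%, against 32.2% of 1902 genes.

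These levels rest on the authors' scaling, which set the arrays to the same trimmed mean. The geometric mean signal of the spiked-in hybridisation controls was 2113, 2884 and 3753 on GSC arrays 1 to 3. It was 4302, 3746 and 3636 on Kc arrays 1 to 3, so the groups overlapped through GSC replicate 3. When the arrays were scaled to these controls, the median log2 fold of all genes moved to 0.34. The share of all calls that were higher in GSC moved to 81.6%, against 61.0% with the authors' scaling, and the counts among the 69 genes became 9 higher and 1 lower. Measured from the median of all genes, however, the general subunits stayed near 0 under both, at 0.02 with the controls and -0.06 with the authors' scaling. They were at 0.17 under quantile normalization, at -0.11 with the arrays scaled to their medians and at -0.20 with dim probe sets left out.

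**Figure D1:**
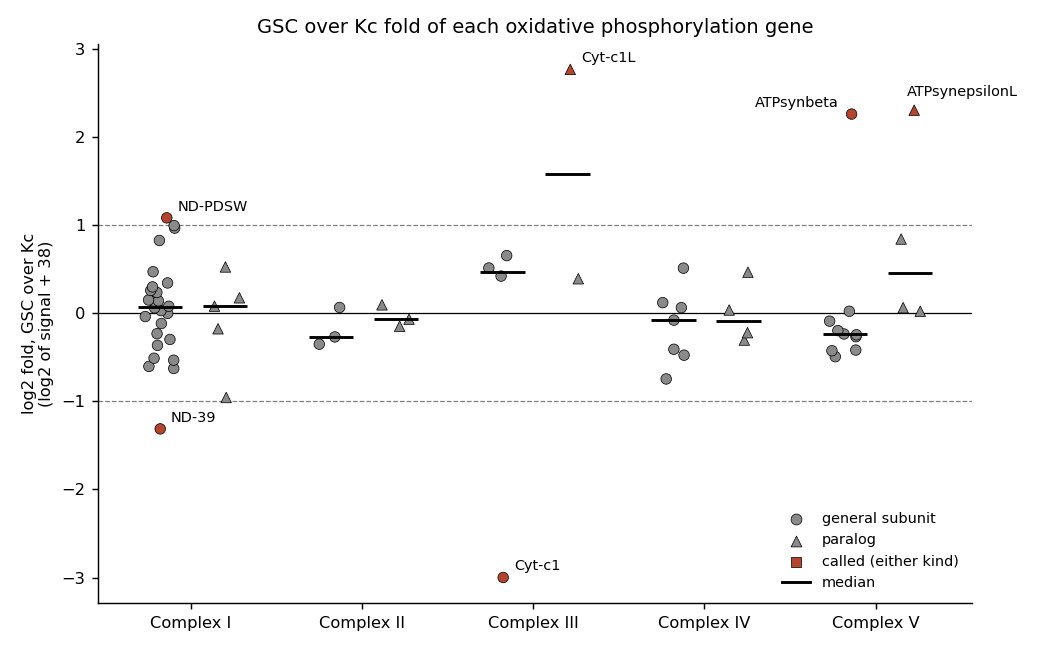
Log2 fold, GSC over Kc, on the scale of log2(signal + 38), of the 68 subunit and paralog genes by complex. Circles are general subunits, triangles are paralogs, red marks the 6 called genes, bars are medians and dashed lines mark a fold of 2; most points lie between the dashed lines, with Cyt-c1, which fell by 3.00, and Cyt-c1L, at 2.77, the farthest apart.

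Complex I, the NADH dehydrogenase and the largest complex of the chain, had 26 general subunits measured. Of these 1 was higher, 1 was lower and 24 were neither, beside 12.6% of all genes called higher and 8.05% called lower. At an adjusted p under 0.05 and any fold 6 were higher and 5 were lower in limma, beside 22.0% and 14.4% of all genes. The median log2 fold was 0.07, and it was -0.039 with the arrays scaled to their medians. ND-PDSW, an accessory subunit of the membrane arm, read 1958, 2312 and 2251 on the GSC arrays, against 1201, 1020 and 822 on the Kc arrays. Every GSC array was above every Kc array. The log2 fold was 1.08 ± 0.149 (SE, limma adjusted p = 0.000321), and the fold stayed just short of 2 without Kc replicate 3, at 0.95 on the log2 scale, with the arrays scaled to their medians, at 0.96, and with an offset at the median of all values.

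ND-39, an accessory subunit that sits beside the arm reaching into the matrix, went the other way. Its signals were 1249, 1354 and 1453 on the GSC arrays, against 3626, 3160 and 3450 on the Kc arrays, and the groups lay far apart. The log2 fold was -1.31 ± 0.108 (SE, limma adjusted p = 1.07e-05). In the RefSeq gene table ND-39 overlaps ZnT77C, whose part in the signal was not tested. Under the hybridisation control scaling the log2 fold of ND-39 was -0.87 and no longer passed the fold minimum.

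Of the subunits that carry the electron path of complex I, ND-75 and ND-51 did not pass the rule. ND-75, which holds iron-sulphur clusters of the matrix arm, averaged 2389 ± 272 in GSC and 3485 ± 557 in Kc, a log2 fold of -0.53 (limma adjusted p = 0.0131). ND-51, the subunit that binds NADH and flavin, averaged 2992 ± 119 in GSC and 2556 ± 442 in Kc, with overlapping groups and a log2 fold of 0.24. The 95% interval of ND-51 ran from -0.05 to 0.52, so a difference as wide as the fold minimum lay outside it.

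Under the fold minimum were accessory subunits with clear separation, named here after their values were seen. ND-13A averaged 3570 ± 360 in GSC and 1780 ± 291 in Kc, a log2 fold of 1.00 that is 1.99 as a plain fold. ND-B12 averaged 2597 ± 409 in GSC and 1308 ± 198 in Kc, a log2 fold of 0.97. In 8 and 5 of 18 alternative settings ND-13A and ND-B12 were called higher. ND-B17.2, at 0.83, followed them. On the low side ND-B14.5A had a log2 fold of -0.63 and ND-18 one of -0.60. All 5 of these genes had an adjusted p under 0.05 in limma. Their groups did not overlap, and lack of overlap alone was seen in 47.1% of all genes. In the RefSeq gene table ND-13A, ND-B12, ND-B14.5A and ND-18 each overlap another gene, as 37 of the 69 members do. The part of such neighbours in the signals was not tested. Between ND-B17.2 and ND-B14.5A the other general subunits of complex I ran from 0.47 (ND-B17) to -0.53 (ND-75). ND-B8 was dim on all arrays, at a mean of 64.7 in GSC and 63.2 in Kc, and its 95% interval was wide.

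**Figure D2:**
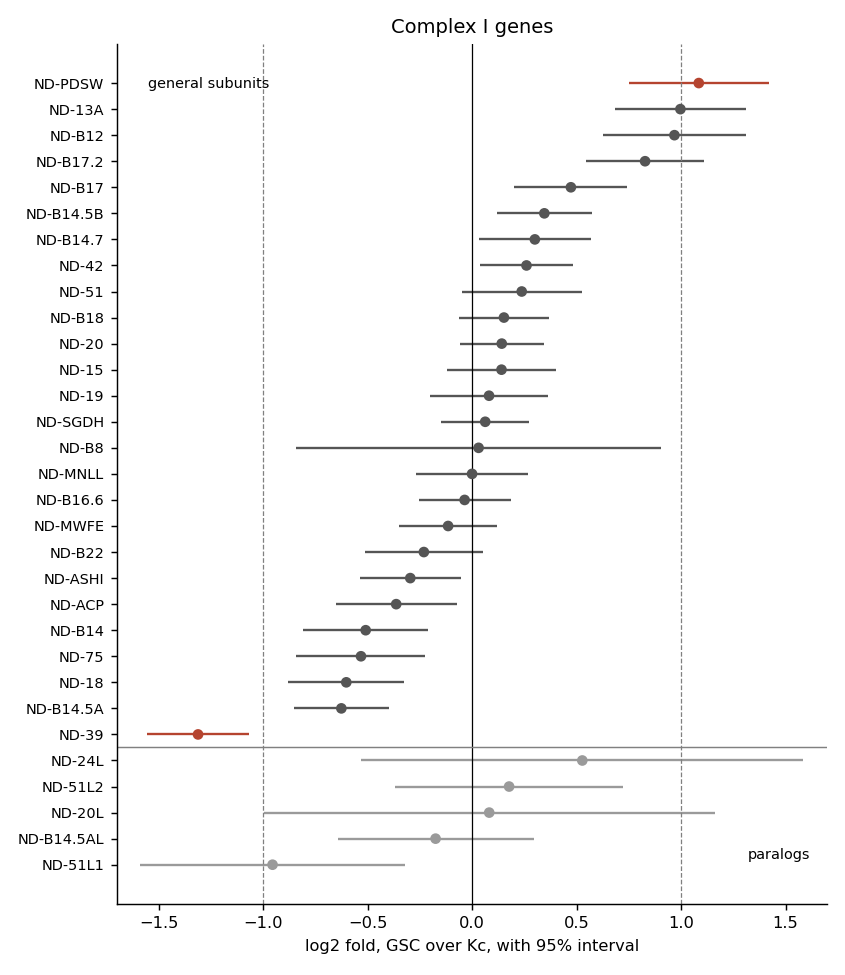
Log2 fold, GSC over Kc, of each complex I gene with its 95% interval from limma, general subunits above the line and paralogs below it. ND-PDSW at 1.08 and ND-39 at -1.31 (red) are the called genes, and the dashed lines mark a fold of 2.

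Of complex II, the succinate dehydrogenase that also works in the tricarboxylic acid cycle, 3 general subunits were measured and none was called by limma. At an adjusted p under 0.05 and any fold 0 were higher and 0 lower, beside 22.0% and 14.4% of all genes. At an unadjusted p under 0.05, for which no share over all genes is given, 0 were higher and 1 was lower. The median log2 fold of the 3 subunits was -0.27, and it was 0.17 under the control scaling. SdhB, the iron-sulphur subunit, read 4676, 5447 and 5562 on the GSC arrays, against 5622, 4641 and 4723 on the Kc arrays. The groups overlapped, and the log2 fold was 0.07, with a 95% interval from -0.19 to 0.32. The membrane anchors SdhC and SdhD had log2 folds of -0.27 and -0.35, with adjusted p of 0.172 and 0.112 in limma. Sdhaf3, an assembly factor for the iron-sulphur subunit, averaged 717 ± 39.6 in GSC and 476 ± 9.42 in Kc, a log2 fold of 0.56 that stayed under the fold minimum.

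Complex III held the widest differences of all 69 genes, and they ran in opposite directions in a subunit and its paralog. Cyt-c1 codes for cytochrome c1, the haem protein of complex III that hands electrons to cytochrome c. Its signals were 1234, 1563 and 1480 on the GSC arrays, against 12118, 11159 and 11582 on the Kc arrays. The highest GSC array stood far below the lowest Kc array. On the log2 scale Cyt-c1 fell by 3.00 ± 0.109 (SE, limma adjusted p = 8.75e-08), with a 95% interval from -3.25 to -2.75. Cyt-c1L, the paralog of Cyt-c1, read 1168, 1003 and 910 on the GSC arrays, against 133, 136 and 87.7 on the Kc arrays. Here every GSC array was above every Kc array. Its log2 fold was 2.77 ± 0.191 (SE, limma adjusted p = 3.63e-06), a 6.82-fold rise.

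Taken as the difference between paralog and general subunit within each array, Cyt-c1L minus Cyt-c1 was -0.08, -0.62 and -0.68 on the GSC arrays, against -6.15, -6.00 and -6.53 on the Kc arrays. The gap of 5.77 between the group means was the widest among the 15 pairs that could be formed, and it ranged from 4.98 to 6.16 over the alternative settings. An exact two-sided permutation test gave p = 0.1, the smallest that 3 arrays against 3 can give. Because each value of such a pair comes from its own probe set, the 2 signals cannot be set against each other as levels; only their shift between groups can be read. According to the RefSeq table neither gene overlaps another annotated gene, and the pair lies on different chromosome arms. Both calls held under all 18 alternative settings.

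The other general subunits of complex III sat on the high side of Kc without passing the fold minimum under the authors' scaling. UQCR-Q, a small subunit that binds ubiquinone, read 18438, 18456 and 20066 on the GSC arrays, against 14994, 14280 and 13215 on the Kc arrays. All GSC arrays were above all Kc arrays, with a log2 fold of 0.42 (limma adjusted p = 0.00492). UQCR-14 had a log2 fold of 0.66 and UQCR-6.4 one of 0.51. RFeSP, the Rieske iron-sulphur protein of the same complex, whose symbol lies outside the selection, averaged 1497 ± 112 in GSC and 929 ± 245 in Kc, a log2 fold of 0.69. The subunit ox of complex III, also outside the selection, had overlapping groups and a log2 fold of 0.17 (limma adjusted p = 0.331). Its dimmer probe set gave 0.70 without overlap (limma adjusted p = 0.00132). Under the control scaling UQCR-14 and RFeSP were called higher, at 1.10 and 1.13. Cyt-c1 was thus the only general subunit of complex III measured here that was lower, while the rest had positive log2 folds, below 1 under the authors' scaling.

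**Figure D3:**
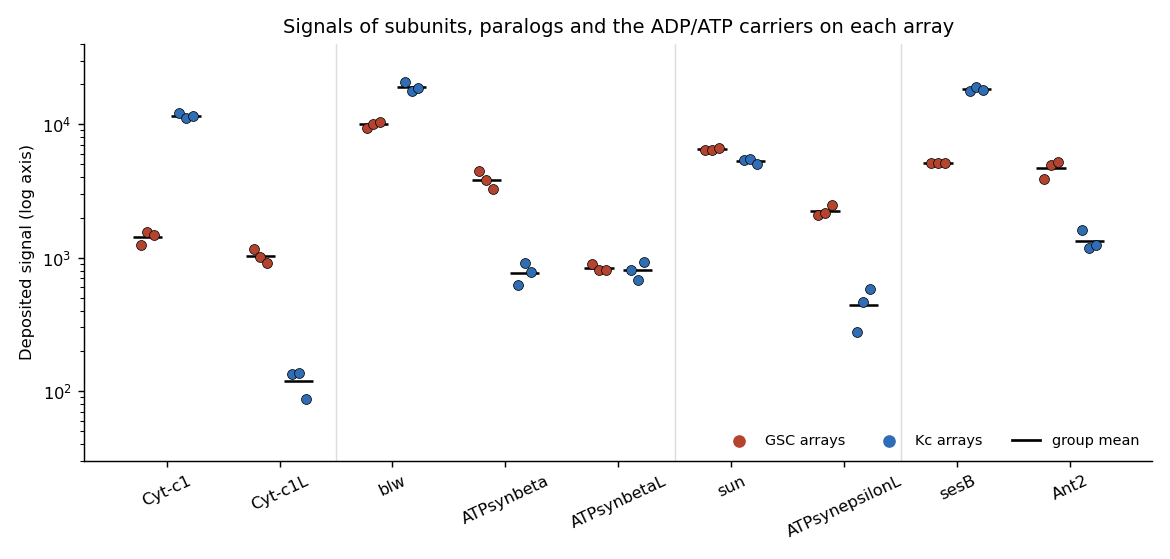
Deposited signal on a log axis for each GSC array (red) and Kc array (blue), with bars at group means, for Cyt-c1 and its paralog, for the ATP synthase subunits blw (alpha), ATPsynbeta and sun (epsilon) with paralogs, and for the ADP/ATP carriers sesB and Ant2. Cyt-c1 averaged 1426 in GSC and 11620 in Kc and Cyt-c1L 1027 in GSC and 119 in Kc; levels are to be compared between groups within a gene, not between genes.

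Complex IV, the cytochrome c oxidase, had 7 nuclear general subunits measured and none was called by limma. At an adjusted p under 0.05 and any fold 1 was higher and 3 were lower, beside 22.0% and 14.4% of all genes. COX5B, which binds zinc at the matrix side, had the widest log2 fold, -0.75. Its signals were 5283, 6960 and 8660 on the GSC arrays, against 14370, 9957 and 10551 on the Kc arrays. The groups did not overlap, but they spread widely (limma adjusted p = 0.0125). COX4 averaged 11899 ± 1502 in GSC and 16580 ± 2323 in Kc, a log2 fold of -0.48, and COX5A averaged 5126 ± 784 in GSC and 6767 ± 252 in Kc, a log2 fold of -0.41. COX7A went the other way, with a log2 fold of 0.51. The median over the 7 genes was -0.08, and it was above 0 under quantile normalization and under the control scaling. COX7C was dim on every array, at 20.4 ± 8.69 in GSC and 17.6 ± 5.63 in Kc, below the offset of 38.

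In complex V, the ATP synthase, 1 subunit departed from all the others. ATPsynbeta, the catalytic beta subunit, read 4470, 3804 and 3265 on the GSC arrays, against 626, 914 and 780 on the Kc arrays. The lowest GSC array was well above the highest Kc array. ATPsynbeta rose by 2.26 ± 0.162 on the log2 scale (SE, limma adjusted p = 4.85e-06), a fold of 4.80. It overlaps the gene CG11076 in the RefSeq table, and what that gene adds to the signal was not tested.

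The subunit that alternates with beta in the catalytic head went the other way. This is blw, the alpha subunit, whose symbol lies outside the selection. Its signals were 9411, 10033 and 10486 on the GSC arrays, against 20614, 17630 and 18668 on the Kc arrays. The groups lay far apart, with a log2 fold of -0.92 ± 0.0964 (SE, limma adjusted p = 4.92e-05), just under the fold minimum. It passed that minimum, at -1.05, where the arrays were scaled to their medians, while under the control scaling the log2 fold of blw was -0.47 (limma adjusted p = 0.149).

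The other 9 general subunits of complex V had log2 folds from -0.49 to 0.02, and none was called. ATPsyngamma, the rotating stalk, averaged 6558 ± 192 in GSC and 9256 ± 734 in Kc, a log2 fold of -0.49. ATPsynO, of the stator stalk that holds the head in place, and ATPsynC, the subunit of the membrane ring, each had a log2 fold of -0.42, with adjusted p of 0.044 and 0.00702 in limma. The 2 probe sets of ATPsynC went opposite ways: the dimmer one averaged 654 in GSC and 431 in Kc, a log2 fold of 0.59 with an adjusted p of 0.0449 in limma, though neither probe set passed the fold minimum. Over all 10 general subunits the median was -0.24, and it was above 0 under quantile normalization, at 0.04, and under the control scaling, at 0.21. At an adjusted p under 0.05 and any fold 1 of the 10 was higher and 4 were lower in limma, beside 22.0% and 14.4% of all genes.

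ATPsynepsilonL was the other called gene of complex V. It is the paralog of sun, the epsilon subunit of the central stalk. Its signals were 2076, 2151 and 2500 on the GSC arrays, against 276, 464 and 578 on the Kc arrays. The 3 GSC arrays were all far above the 3 Kc arrays, and the log2 fold was 2.31 ± 0.224 (SE, limma adjusted p = 3.30e-05). The gene sun itself averaged 6475 ± 108 in GSC and 5304 ± 214 in Kc, a log2 fold of 0.29. In contrast ATPsynbetaL, the paralog of the beta subunit, averaged 838 ± 44.8 in GSC and 806 ± 123 in Kc with overlapping groups, a log2 fold of 0.06 and a 95% interval from -0.26 to 0.38. The difference of ATPsynbetaL minus ATPsynbeta shifted by -2.20 between the groups, without overlap of the arrays.

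Paralogs as a group were mostly dim in both kinds of cell. Both group means lay under 162, the median of all deposited values, in 11 of 18 paralogs, against 2 of 50 general subunits. Cyt-c1L and ATPsynepsilonL were the 2 that were called, both higher, and 16 were neither. These 2 are 11.1% of the 18, near the 12.6% of all genes called higher, so the count is no result about paralogs. None was called lower, beside 8.05% of all genes. The median log2 fold over the 18 was 0.07. ND-51L1 had the lowest log2 fold among paralogs, -0.96, with 76.3, 56.1 and 73.5 on the GSC arrays, against 185, 121 and 208 on the Kc arrays. The groups of ND-51L1 did not overlap, but the fold stayed under 2 (limma adjusted p = 0.0251). In 7 of 18 alternative settings ND-51L1 was called lower, among them quantile normalization, at -1.05, and the arrays without Kc replicate 2, at -1.14. The 18 include the setting with dim probe sets left out, in which ND-51L1 was not tested. The other paralog of ND-51, ND-51L2, had a log2 fold of 0.18. The paralogs ND-20L, ND-24L, UQCR-14L and ATPsynGL had log2 folds of 0.08, 0.53, 0.39 and 0.02 with overlapping groups, and none of them was called.

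Paralogs of cytochrome c oxidase subunits were at the low end of the arrays in both groups. COX5BL averaged 17.0 in GSC and 15.2 in Kc, COX4L 32.5 in GSC and 47.3 in Kc, COX6AL2 34.9 in GSC and 10.7 in Kc, and COX7AL 46.0 in GSC and 66.0 in Kc. Signals this low lie at or near the offset of 38, where a fold cannot be read. The same held for the complex II paralogs SdhAL, SdhBL and SdhCL, whose group means ran from 15.7 to 51.7. ATPsynCF6L averaged 77.2 in GSC and 22.8 in Kc, a log2 fold of 0.84 that did not pass (limma adjusted p = 0.102).

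A general subunit could be paired with 15 of the 18 paralogs, counting sun for ATPsynepsilonL and levy for COX6AL2. For ATPsynGL, ND-24L and SdhAL the general subunit had no probe set to itself. In 7 pairs the within-array differences of the 2 groups did not overlap, a share close to the 47.1% of all genes whose own signals did not, so the count is no result about the pairs. The exact test cannot go below p = 0.1, or 0.214 after adjustment over the 15 pairs. The shifts of paralog minus general subunit in these 7 were 5.77 for Cyt-c1L, -2.20 for ATPsynbetaL, 2.02 for ATPsynepsilonL, -1.19 for ND-51L1, 0.87 for COX6AL2, 0.78 for COX5BL and 0.45 for ND-B14.5AL. The shifts of COX5BL and COX6AL2 rest on paralog signals near the offset, and the general subunits COX5B and levy had log2 folds of -0.75 and -0.41. Only in the Cyt-c1 pair was the paralog called higher and the general subunit called lower. In the order of genes in the RefSeq table, COX5B and COX5BL have 1 gene between them, COX7A and COX7AL 2 genes, and SdhC and SdhCL 15 genes, while Cyt-c1L and ATPsynepsilonL lie on other arms than their general subunits.

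Since such paralogs are best known from the testis, markers of spermatocytes and testis were read beside them. Of 17 measured, 4 were higher in GSC, beside 12.6% of all genes (bol at 2.50, tomb at 1.80, twe at 1.74 and aly at 1.18 on the log2 scale) and 1, achi, was lower at -1.99, beside 8.05% of all genes. A dimmer probe set of bol, at a mean of 51.9 in GSC and 38.3 in Kc, had a log2 fold of 0.12 and was not called. The call of aly was lost without GSC replicate 2, GSC replicate 3 or Kc replicate 2 (adjusted p of 0.0551, 0.0731 and 0.059 in limma) and with the offset at the median of all values. The call of achi was lost with that offset and with the mean over its probe sets, the other of which had a log2 fold of 0.55. Their summed signal was 3176.3 to 3908.0 on GSC arrays, against 1967.4 to 2378.6 on Kc arrays. The markers dj, sa, nht and can were dim on all 6 arrays, with highest signals of 25.9, 45.1, 21.7 and 51.6, although none was at 0. Other late markers were brighter in both groups: Mst98Ca read 123.5, 378.5 and 598.5 on the GSC arrays, against 128.2, 271.7 and 514 on the Kc arrays, and Mst87F read 225, 206.1 and 327.5 on the GSC arrays, against 186.6, 192.5 and 344.7 on the Kc arrays. The groups overlapped in both genes. The marker mia was also brighter, at a mean of 279 in GSC and 514 in Kc. Its log2 fold was -0.79, under the fold minimum (limma adjusted p = 0.00497). The part of this marker list in the paralog results was not tested.

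Across the 50 general subunits, single arrays differed little under the authors' scaling. Each gene's log2 signal was set against its Kc mean, and the median over the genes was taken on each array. These medians were -0.11, -0.02 and -0.03 on the GSC arrays, against 0.10, -0.09 and -0.02 on the Kc arrays, so the groups overlapped. For the 4 complex III subunits they were 0.35, 0.51 and 0.55 on the GSC arrays, against 0.07, -0.02 and -0.02 on the Kc arrays, without overlap. For the 10 complex V subunits they were -0.34, -0.21 and -0.13 on the GSC arrays, against 0.14, -0.08 and -0.06 on the Kc arrays, again without overlap. Complexes I, II and IV overlapped between groups. Relative to the median of all genes, the complex III median was above 0 in the main setting and every alternative that gave it, from 0.33 to 0.70, and the complex II median was below 0 in each, from -0.41 to -0.17. The complex V and complex IV medians were below it except under quantile normalization.

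**Figure D4:**
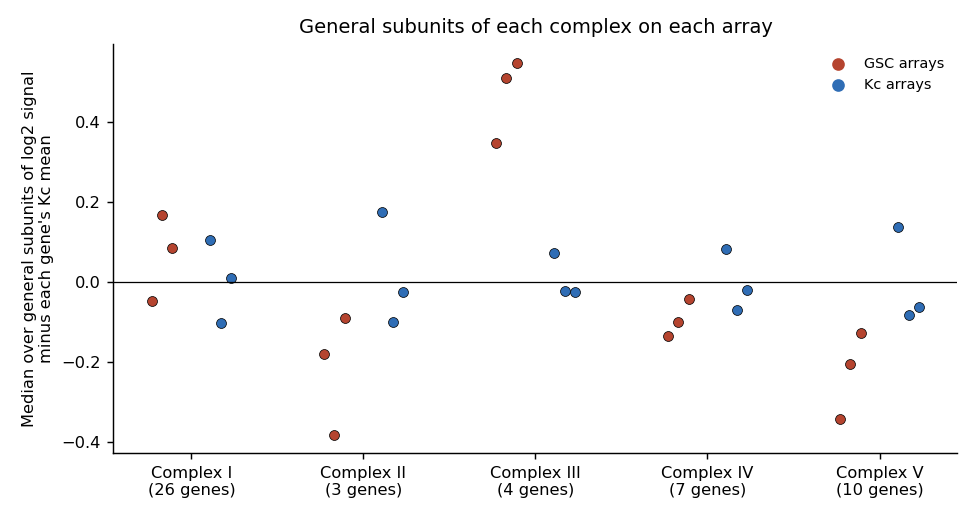
Median over the general subunits of each complex of log2(signal + 38) minus each gene's Kc mean, for each GSC array (red) and Kc array (blue). The GSC arrays lie at 0.35 to 0.55 in complex III and at -0.34 to -0.13 in complex V, in both cases apart from the Kc arrays, and overlap with Kc in complexes I, II and IV.

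Among genes that serve the respiratory chain from outside the complexes, wide differences stood in both directions. The ADP/ATP carriers, which exchange the ATP made by complex V for ADP of the cytosol, changed in opposite directions. The carrier sesB read 5132, 5155 and 5114 on the GSC arrays, against 17685, 18919 and 18172 on the Kc arrays. Its neighbour Ant2 read 3904, 4914 and 5188 on the GSC arrays, against 1612, 1185 and 1237 on the Kc arrays. In neither gene did the groups overlap: sesB fell by 1.82 ± 0.0847 and Ant2 rose by 1.77 ± 0.151 on the log2 scale (SE, limma adjusted p = 2.92e-07 and 1.45e-05). The 2 genes are adjacent and overlap in the RefSeq annotation, and how far each probe set reads its own gene alone was not tested.

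The carriers and porins numbered 11, of which 2 were higher, 2 were lower and 7 were neither, with a median log2 fold of 0.10. Besides the ADP/ATP carriers, Porin2, a channel of the outer membrane, rose by 1.59. The phosphate carrier Mpcp2 fell by 1.52 on the log2 scale. Among 14 genes listed for the tricarboxylic acid cycle, which feeds the chain with NADH and succinate, 1 was higher, 4 were lower and 9 were neither, with a median of -0.13. Under the control scaling the median was 0.22, with 2 higher and 2 lower. The list also holds Mdh1 and Idh, which are not subunits of the mitochondrial malate and NAD-dependent isocitrate dehydrogenases. The aconitase mAcon1 averaged 1436 ± 45.9 in GSC and 10636 ± 403 in Kc, a log2 fold of -2.86 ± 0.0894 (SE, limma adjusted p = 3.16e-08). Idh3g, a subunit of the NAD-dependent isocitrate dehydrogenase, had a log2 fold of -1.78, and ScsbetaG, of succinyl-CoA ligase, one of -1.28, although the other probe set of ScsbetaG gave -0.25 and was not called. The calls of ScsbetaG and Idh were lost under the control scaling, at -0.84 and -0.77, and that of ScsbetaG also with the mean over its probe sets. The cytosolic malate dehydrogenase Mdh1 was the higher one, at 1.15, so under the authors' scaling no measured enzyme of the mitochondrial cycle itself was called higher.

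Of 11 assembly factors of the respiratory chain 2 were higher and 1 was lower, with a median of 0.41. The factor sicily, which acts in the assembly of complex I, averaged 1286 ± 251 in GSC and 180 ± 45.8 in Kc, a log2 fold of 2.61 (limma adjusted p = 8.01e-06). Sirup, which helps to mature the flavoprotein of complex II, averaged 1057 ± 106 in GSC and 4304 ± 393 in Kc, a log2 fold of -1.99 (limma adjusted p = 1.46e-06). The call of Bcs1, which inserts the Rieske protein into complex III, stood at the fold minimum, with a log2 fold of 1.01, and was lost in 7 of 18 alternative settings, among them the fits without GSC replicate 1 (0.97), GSC replicate 2 (0.98) or Kc replicate 1 (0.70). Scox, a copper chaperone of complex IV, had a log2 fold of 0.85 and was not called. Of 8 ubiquinone synthesis genes only Coq8 was called, higher at 1.05, and its call was lost in 4 settings, among them the fit without Kc replicate 1 (0.96), while Coq2 was at 0.13.

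Of 9 genes that keep and transcribe mitochondrial DNA, the polymerase PolG1 was called, higher at 1.18, and TFAM, which packages that DNA, was at -0.32. Of 7 regulators of mitochondrial biogenesis, quality and shape, 4 were higher and none was lower in limma, as at an unadjusted p under 0.05 (0 lower), with a median of 1.15. The transcription factor ewg was at 1.82, with 306, 277 and 239 on the GSC arrays, against 9.60, 69.7 and 95.9 on the Kc arrays. The kinase Pink1 was at 1.55, the inner membrane fusion factor Opa1 at 1.41, and the fission factor Drp1 at 1.15. The call of Drp1 was lost without Kc replicate 1, at 0.93, and with the offset at the median of all values, at 0.96, which left 3 higher. The regulator clu was not called from its brightest probe set, at 0.48, but its other probe set was lower at -1.04 (limma adjusted p = 0.000952), with 195 to 246.9 on the GSC arrays, against 446.7 to 503.5 on the Kc arrays. The 6 general subunits with other names, which include RFeSP, blw and sun, held no gene called by limma, with 3 higher and 2 lower at an unadjusted p under 0.05, and their median was 0.23. The counts of called genes stand beside the 12.6% and 8.05% of all genes that were called higher and lower. For the counts at an unadjusted p no share over all genes is given.

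**Figure D5:**
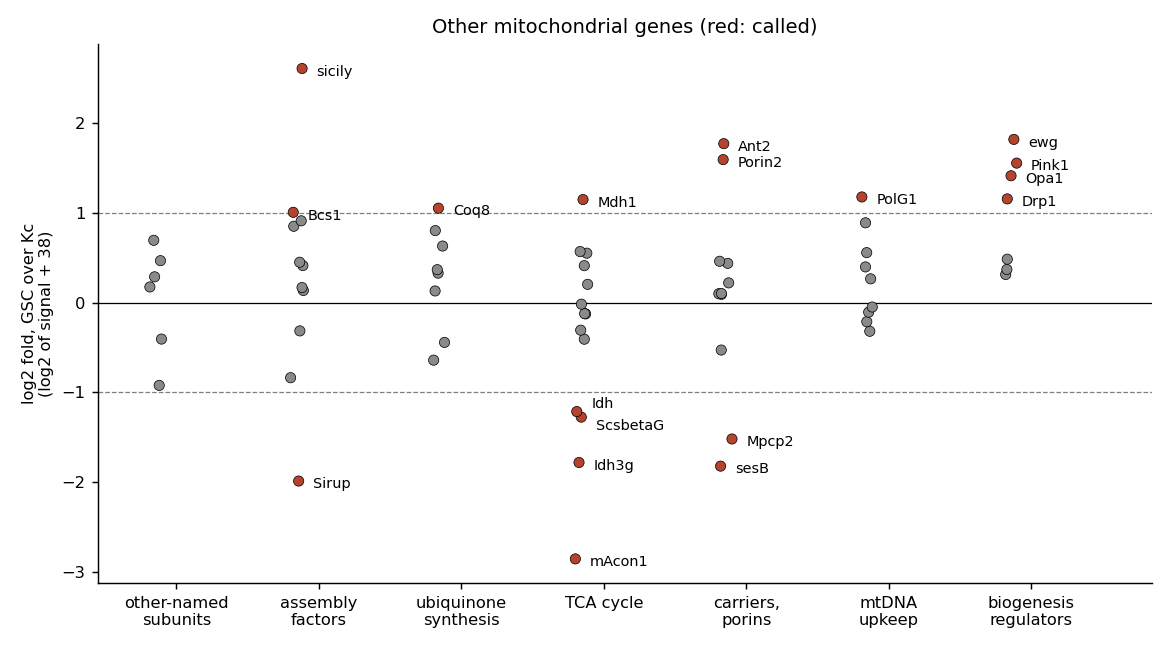
Log2 fold, GSC over Kc, on the scale of log2(signal + 38), of mitochondrial genes outside the selection, by list, with called genes in red and named and dashed lines at a fold of 2. The list of subunits with other names holds no called gene, carriers hold calls in both directions, and the 4 called regulators are all higher. In the list for the tricarboxylic acid cycle the only higher call is the cytosolic Mdh1.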

How the data were processed

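For every array the authors deposited linear signal intensities, with 1 value for each probe set. The submitters' processing notes name MAS5, with version not given in the sources used here. After removing 2% of values at each end, the mean was 500.1 on all 6 arrays, so no further scaling was applied. Of 14010 probe sets, 44 array controls were left out, and 12443 of the others had 1 gene symbol in the platform annotation. Identities and gene order came from RefSeq's gene table (assembly: Release 6 plus ISO1 MT), in which all 69 members matched by gene ID.

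Tests used log2(signal + 38); the offset is the 25th percentile over all 6 arrays and understates the change of dim genes. GSC and Kc were compared with limma 3.58.1 in R 4.3.3 (lmFit, eBayes with trend and robust variance), two-sided, over 13966 probe sets, with Benjamini-Hochberg adjustment over all of them. Paralog and general subunit were compared within arrays by an exact permutation test (SciPy 1.17.1). The number of arrays limits the precision.

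The members and lists were chosen with earlier results of these data known. Genes named are all called members, the paralogs, some of their general subunits, key subunits, the 3 called genes of largest fold in each other list, and that list's leading gene. Other genes named were chosen after their values were seen. Alternatives covered offset, floor, scaling, dim probe sets, variance prior, replicate block, each array left out, probe set choice and fold minimum.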

Additional observations from a re-analysis of the deposited data

How the results depend on the processing

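Of the 6 called genes, ATPsynbeta, ATPsynepsilonL, Cyt-c1L and Cyt-c1 kept their calls in all 18 alternatives. ND-39 kept its call in 17 and ND-PDSW in 15. The number of genes called higher and lower, 4 and 2 as reported, was 9 and 1 with scaling to the hybridisation controls and 8 and 6 with a fold minimum of 1.5. Leaving out 1 array gave 4 to 7 higher, with 7 without GSC replicate 1, and 2 to 3 lower. Median log2 folds of general subunits moved with the scaling. Under quantile normalization they were 0.17 over all, 0.25 for complex I, 0.70 for complex III, 0.066 for complex IV and 0.044 for complex V. Scaled to the median they were -0.14 over all, -0.039 for complex I, 0.34 for complex III, -0.20 for complex IV and -0.36 for complex V. Scaled to the controls they were 0.37 over all, 0.52 for complex I, 0.17 for complex II, 0.92 for complex III, 0.20 for complex IV and 0.21 for complex V. With dim probe sets left out the complex IV median was -0.24. Leaving out 1 array, the complex V median ran from -0.29 to -0.10. Counts over all genes were 830 higher and 580 lower with the offset at the median, 2351 higher and 529 lower with the control scaling, and 2138 higher and 1351 lower with a fold minimum of 1.5, against 1368 and 873 as reported. The cause of these moves was not tested beyond what each setting changes by its construction.

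The replicate numbers gave no sign of pairing: deviations of same-numbered GSC and Kc arrays correlated at -0.03, 0.04 and -0.01. Those of differently numbered arrays ran from -0.06 to 0.05. Such values cannot show whether arrays were processed in pairs. With the replicate block the same 4 genes were higher and the same 2 lower. Among other genes named, calls were lost in 7 settings for Bcs1, 4 each for Coq8 and aly, 2 each for Drp1, ScsbetaG and achi, and 1 for Idh, while ND-51L1 was called lower in 7.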
